A study of Arabidopsis thaliana with 8 samples.

Results

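The 31 genes described here form a mixed group of Arabidopsis transcripts, from many gene families, that read lower in the petc mutant than in wild type (WT). They include SPL (SPOROCYTELESS, AT4G27330), a regulator of early anther and ovule development, SWAP70 (AT2G30880), a signalling protein that acts on small GTPases, and GH9B11 (AT2G44560), an endoglucanase of the cell wall. They also include genes for an alpha/beta-hydrolase, a resistance protein, a plastid acetyltransferase and several proteins of unknown function. Their petc mean was 34.2% to 85.9% of the WT mean, with a median of 66.3%.

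The genes were chosen by their deposited intensities in these same samples. A gene was taken when it had a probe that the platform annotation pairs with it alone, when that probe was above 0 in all 8 samples and outside the 60 brightest single-gene probes by WT mean, and when its highest petc value lay below its lowest WT value divided by 1.1. Of 3439 probes, 692 had 1 gene, and 587 of these were above 0 in all samples. The limit was met by 52, of which 12 were among the 60 brightest and 9 were left out by name, which leaves 31 genes, each with 1 probe. Another 12 names on the list of genes to leave out did not come into play at that step. Because the petc and WT values made the choice, the differences between the groups are given below as a description, with no test.

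RNA came from 4 samples of the petc mutant and 4 of WT, both of the ecotype Landsberg and both numbered 1 to 4. The label describes petc as lacking the Rieske protein, and no other allele, treatment or growth condition is given for either group. Neither tissue nor age is given, and nothing says whether the numbers stand for separate plants, extracts or hybridisations, so the calls below rest on a spread that may be technical. Total RNA was read on an expression array as 1 intensity per probe, in a unit that is not given. In bulk RNA, fewer cells of a type and less RNA per cell cannot be told apart.

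The Rieske protein is the iron-sulfur subunit of the cytochrome b6f complex, which takes electrons from plastoquinol and hands them to plastocyanin in the thylakoid membrane. Without it linear photosynthetic electron flow stops at plastoquinol, and plants do not grow on photosynthesis. The redox state of the plastoquinone pool, sugar supply and plastid signals are all known to act on nuclear gene expression. All 31 genes described here are nuclear. No value of the mutated gene was used, so it gives no check of the labels.

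Samples of a group fell into close pairs by number, called here the first pair (1 and 2) and the second pair (3 and 4). Spearman's rho across probes was 0.975 to 0.988 within such a pair and 0.902 to 0.923 between the pairs of a group. Between petc and WT samples of the same pair of numbers it was 0.8985 to 0.9223. Samples of different pairs of a group were thus about as unlike as petc and WT samples of the same pair. Differences are therefore also given within each pair of numbers. The deposited total was 3287 to 3440 per sample, and 430 to 461 probes per sample were listed at 0.

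Over the 510 eligible single-gene probes, meaning those above 0 in all samples, outside the brightest 60 and not left out by name, the limit was met by 6.08%. The mirror condition, with the lowest petc value above the highest WT value times 1.1, was met by 54 probes or 10.6%. These shares are not like for like, since the 9 genes left out by name at that step all met the limit for lower genes. Names left out were dropped from the mirror count too, and how many of them met that condition is not given. Without the factor, all petc values lay below all WT values at 63 probes (12.4%) and above them at 77 (15.1%). In limma, fitted on all probes after quantile normalisation, 83 of 595 tested single-gene probes were called lower in petc (13.9%) and 66 higher (11.1%) at an adjusted p below 0.05. With the values as deposited the balance turned, with 66 lower and 84 higher. With the replicate number as a block these counts were 147 lower and 126 higher, and with the means of the close pairs limma called 0 in either direction, while 57 were lower and 40 higher at an unadjusted p below 0.05. Among the eligible probes 11.0% were called lower, and 30 of the 31 genes were among them. Since the genes were chosen on this contrast, that count carries no information about them. The gene not called was AT3G24190, the closest of all to the limit.

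The median log2 fold change of the 31 genes was -0.64 on the normalised scale, against -0.02 over all 2947 tested probes. It was -0.62 in the first pair and -0.59 in the second pair. The petc mean was less than 50% of the WT mean for 4 genes, from 50% to 75% for 22 and above that for 5. All 31 were lower in petc in each of the 4 pairs of samples with the same number, which the rule fixes.

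**Figure D1:**
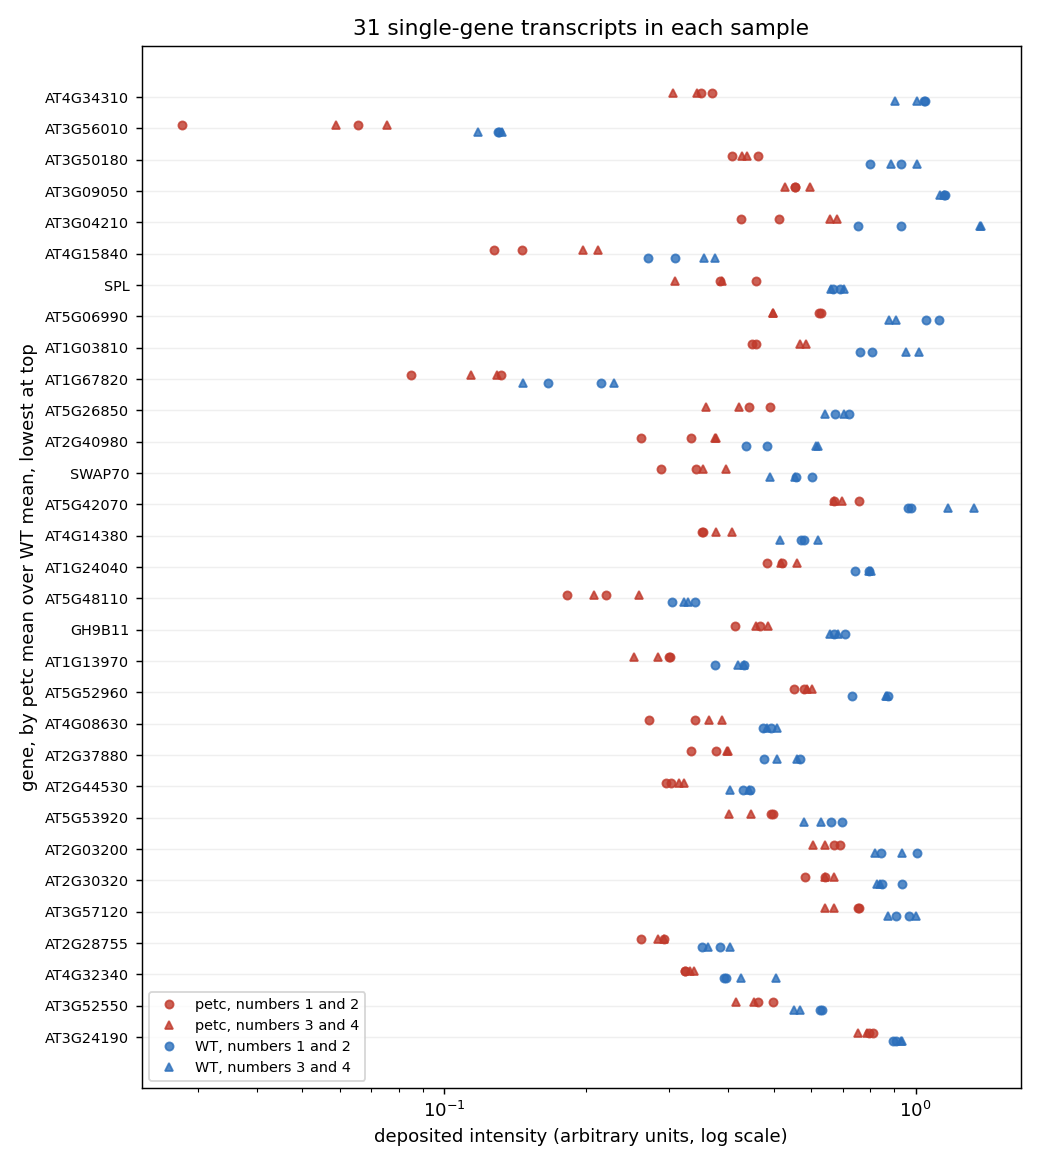
Deposited intensity of each of the 31 genes (arbitrary units, log scale) in 4 petc samples (red) and 4 WT samples (blue), with circles for numbers 1 and 2 and triangles for numbers 3 and 4. Genes run from AT4G34310 at the top, at 34.2% of WT, to AT3G24190 at the bottom, at 85.9%, and no gene has overlapping groups, because the rule demands it.

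The gene furthest below WT was AT4G34310, of the alpha/beta-hydrolase superfamily, a large group of esterases, lipases and related enzymes. Its intensity was 0.351, 0.370, 0.306 and 0.343 in petc samples 1 to 4, against 1.04, 1.05, 1.01 and 0.903 in WT samples 1 to 4. Every petc sample was thus at less than 50% of every WT sample, and the lowest WT value was 2.44 times the highest petc value, the widest gap among the 31. The log2 fold change was -1.56 ± 0.11 (SE, n = 4 per group), with -1.47 in the first pair and -1.65 in the second pair. This SE, like those below, takes the 4 samples of a group as independent, although they form close pairs, so it may be too small.

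AT3G09050 and AT3G50180 had differences close to 2-fold with little spread. AT3G09050, for which no role is stated here, had 0.554, 0.554, 0.529 and 0.598 in petc and 1.16, 1.15, 1.13 and 1.15 in WT, and its WT values varied least of all 31 genes, with an SD of 1.06% of the mean. The log2 fold change of AT3G09050 was -1.06 ± 0.08 (SE). AT3G50180, a member of a plant family of unknown function known as DUF247, had 0.462, 0.409, 0.428 and 0.438 in petc and 0.931, 0.800, 0.885 and 1.01 in WT. In neither gene did any sample approach the other group, and the lowest WT values were 1.89 times (AT3G09050) and 1.73 times (AT3G50180) the highest petc values.

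AT3G56010 had the second largest difference, at a dim probe. It read 0.0278, 0.0656, 0.0755 and 0.0590 in petc, against 0.130, 0.131, 0.118 and 0.132 in WT. The WT samples lay close together while petc sample 1 lay well under the other petc samples, so the petc SD was 0.0206 on a mean of 0.0570, 36.2% of that mean and the largest relative spread in petc among the 31. The log2 fold change was -1.52 ± 0.27 (SE), and it was -0.59 when an offset of 0.1 was added before taking the log.

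Among regulators and signalling genes, SPL encodes a nuclear protein that is needed for the formation of sporocytes in anthers and ovules, and it is also named NOZZLE. Its intensity was 0.459, 0.385, 0.308 and 0.389 in petc samples 1 to 4, against 0.692, 0.667, 0.663 and 0.704 in WT samples 1 to 4. The mean was 0.385 ± 0.0615 in petc and 0.682 ± 0.0198 in WT (SD, n = 4 each), so the petc samples were lower and more spread. The petc value of sample 3 was the lowest and that of sample 1 the highest, and the difference was -0.67 on the log2 scale in the first pair and -1.05 in the second pair. Because the tissue is not given, whether floral tissue was part of these samples is not known.

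SWAP70 carries a pleckstrin homology domain and promotes nucleotide exchange on Rac-type small GTPases in plants. It had 0.343, 0.288, 0.397 and 0.354 in petc, against 0.604, 0.557, 0.555 and 0.492 in WT. All petc values stood under the WT range, with petc sample 3 and WT sample 4 the nearest to each other. Here the difference was larger in the first pair (-0.87 on the log2 scale) than in the second pair (-0.55), the reverse of SPL.

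AT1G67820, a gene of the type 2C protein phosphatase family, was dim, with 0.132, 0.0851, 0.114 and 0.129 in petc and 0.166, 0.215, 0.147 and 0.229 in WT. The highest petc value and the lowest WT value were close, at a ratio of 1.111, and the gene no longer met the rule after median centring. AT3G57120, of the protein kinase superfamily, had 0.754, 0.759, 0.671 and 0.641 in petc and 0.967, 0.911, 1.004 and 0.875 in WT. Its difference was -0.23 on the log2 scale in the first pair and -0.57 in the second pair. It did not meet the rule on quantile normalised values.

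AT3G04210 encodes a protein of the class that joins a TIR domain to a nucleotide-binding site, as in plant resistance proteins. It had 0.514, 0.427, 0.680 and 0.658 in petc and 0.930, 0.754, 1.37 and 1.37 in WT. The second pair was brighter than the first pair in both groups, so petc samples 3 and 4 came close to WT sample 2, and the ratio of the lowest WT to the highest petc value was only 1.108. Within each pair of numbers the difference was wide, at -0.78 on the log2 scale in the first pair and -1.15 in the second pair.

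Among genes for enzymes, GH9B11 encodes a glycosyl hydrolase of family 9, the plant endo-beta-1,4-glucanases that act on cell wall glucans. Its intensity was 0.468, 0.414, 0.458 and 0.486 in petc samples 1 to 4 and 0.708, 0.673, 0.657 and 0.686 in WT samples 1 to 4. The groups were tight and well apart, with a mean of 0.456 ± 0.0308 in petc and 0.681 ± 0.0214 in WT (SD, n = 4 each), and the difference was -0.62 and -0.56 in the 2 pairs on the log2 scale. In the gene order of RefSeq assembly TAIR10.1, GH9B11 lies on chromosome 2 near AT2G44530, also among the 31, and the 2 genes between them are its relatives GH9B9 and GH9B10. GH9B9 and GH9B10 have no single-gene probe here, and since the probe sequence was not used, signal shared with them cannot be told apart.

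Of the other 3 genes of that family found by name among the tested single-gene probes, 1 passed the test and was higher in petc. Family members listed under other names, or read by probes with several genes, were not searched for. GH9B12 had 0.455, 0.405, 0.418 and 0.458 in petc and 0.357, 0.347, 0.314 and 0.319 in WT, so all petc values lay above all WT values. In limma its log2 fold change was 0.34 ± 0.10 (SE, adjusted p = 0.0347), but this call was lost without petc replicate 1, 2, 3 or 4, without WT replicate 3 or 4, with the pairs as correlated readings and with their means, and its adjusted p was 0.00624 to 0.396 over the alternatives run. GH9B16 had 0.669, 0.637, 0.568 and 0.488 in petc and 0.851, 0.714, 0.725 and 0.773 in WT. All petc values of GH9B16 thus lay below all its WT values, as for GH9B11, but the gap was too small to meet the rule. In limma GH9B16 had -0.37 ± 0.14 (SE, adjusted p = 0.0943, 0.0210 to 0.454 over the alternatives) and passed with the replicate number or the pair as a block. GH9B8, a dim probe with overlapping groups, had -0.25 ± 0.12 (SE, limma adjusted p = 0.170, 0.0586 to 0.858 over the alternatives). Its value depended on the scaling, at -0.05 as deposited and -0.08 after median centring. The difference between GH9B11 and its relatives was not tested.

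AT2G44530 belongs to the phosphoribosyl pyrophosphate synthetase family, whose product is a precursor of nucleotides, histidine and tryptophan. It had 0.295, 0.302, 0.323 and 0.314 in petc and 0.444, 0.431, 0.404 and 0.444 in WT, with a petc mean at 71.6% of WT. Samples of a group differed little, and the difference was -0.54 in the first pair and -0.50 in the second pair on the log2 scale.

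AT5G48110, of the terpene synthase family, had 0.221, 0.182, 0.259 and 0.208 in petc and 0.341, 0.305, 0.323 and 0.329 in WT. Its petc samples were the more spread, and petc sample 3 came nearest to WT. AT2G03200, of the aspartyl protease family, had 0.693, 0.671, 0.641 and 0.607 in petc and 1.01, 0.844, 0.937 and 0.820 in WT, where the WT samples were the more spread. Their petc means stood at 67.0% (AT5G48110) and 72.4% (AT2G03200) of WT.

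Some of the genes belong to families that modify or bind RNA or proteins. AT1G24040, of the GNAT acetyltransferase family and known as a plastid enzyme, had 0.520, 0.485, 0.562 and 0.518 in petc and 0.796, 0.745, 0.805 and 0.798 in WT. Its difference was nearly the same in both pairs, -0.57 in the first pair and -0.59 in the second pair on the log2 scale. AT5G53920, related to the methyltransferase that acts on a large-subunit protein of bacterial ribosomes, had 0.499, 0.493, 0.402 and 0.449 in petc and 0.698, 0.662, 0.579 and 0.631 in WT. The second pair was lower in both groups for AT5G53920, and its petc samples 1 and 2 came nearest to WT sample 3.

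AT2G30320, of the pseudouridine synthase family, which modifies uridines in RNA, had 0.643, 0.582, 0.670 and 0.642 in petc and 0.851, 0.936, 0.826 and 0.842 in WT. No petc sample exceeded 0.670 and no WT sample was under 0.826. AT1G03810, with a nucleic acid-binding OB-fold, had 0.451, 0.458, 0.585 and 0.567 in petc and 0.807, 0.764, 0.956 and 1.02 in WT. As for AT3G04210, the second pair of AT1G03810 was the brighter in both groups, and the difference within each pair was similar, -0.75 and -0.86 on the log2 scale.

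AT3G24190 belongs to the ABC1-like kinase family, whose plant members include proteins of plastoglobules, the lipid bodies of the thylakoid that hold plastoquinone. It had the smallest difference, with 0.798, 0.810, 0.787 and 0.755 in petc and 0.897, 0.907, 0.931 and 0.934 in WT. The groups were tight but close, at a ratio of 1.107 between the lowest WT and the highest petc value. The log2 fold change was -0.09 in the first pair and -0.31 in the second pair, and the gene did not meet the rule on quantile normalised values.

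A pair of genes share the plant family of unknown function known as DUF617. AT5G06990 had 0.625, 0.629, 0.497 and 0.498 in petc and 1.05, 1.12, 0.910 and 0.878 in WT, and AT2G37880 had 0.378, 0.333, 0.398 and 0.400 in petc and 0.478, 0.568, 0.561 and 0.509 in WT. The petc mean was 56.8% of WT for AT5G06990 and 71.3% for AT2G37880. In AT5G06990 the second pair was lower in both groups, while in AT2G37880 both pairs gave nearly the same difference (-0.53 and -0.50 on the log2 scale).

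The role of most of the remaining genes is not stated here. AT4G15840 had 0.128, 0.146, 0.212 and 0.197 in petc and 0.309, 0.270, 0.375 and 0.355 in WT, where the second pair was the brighter in both groups and the log2 fold change was -1.03 ± 0.17 (SE). AT5G26850 had 0.444, 0.490, 0.422 and 0.359 in petc and 0.676, 0.721, 0.706 and 0.643 in WT. AT2G40980 had 0.262, 0.334, 0.378 and 0.375 in petc and 0.437, 0.485, 0.620 and 0.615 in WT. The nearest samples of the groups were petc sample 2 and WT sample 4 for AT5G26850, and petc sample 3 and WT sample 1 for AT2G40980.

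AT5G42070 was the gene whose difference varied most between the pairs on the log2 scale. It had 0.759, 0.670, 0.697 and 0.672 in petc, all in a narrow range, against 0.961, 0.976, 1.17 and 1.33 in WT, where samples 3 and 4 were the brighter. The log2 fold change was therefore -0.36 in the first pair and -0.96 in the second pair. AT4G32340, of the tetratricopeptide repeat superfamily, showed a like pattern at a smaller size, with 0.324, 0.324, 0.339 and 0.332 in petc and 0.397, 0.392, 0.426 and 0.506 in WT, and log2 fold changes of -0.27 in the first pair and -0.56 in the second pair. Together with AT3G57120 and AT3G24190, these were the 4 genes whose log2 fold change in one pair was over 2 times that in the other, and in all 4 it was the larger in the second pair.

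AT4G14380, AT1G13970 and AT5G52960 had petc means at 65.3%, 68.6% and 69.6% of WT. AT4G14380 had 0.355, 0.353, 0.407 and 0.377 in petc and 0.578, 0.571, 0.515 and 0.620 in WT. AT1G13970 had 0.301, 0.300, 0.253 and 0.284 in petc and 0.375, 0.432, 0.433 and 0.420 in WT. The petc samples of AT5G52960 were tight (0.553, 0.581, 0.603 and 0.589), and in WT (0.874, 0.733, 0.871 and 0.866) sample 2 stood below the other 3.

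Of the last genes, AT4G08630 had 0.340, 0.272, 0.365 and 0.389 in petc and 0.494, 0.475, 0.483 and 0.509 in WT, with a petc mean at 69.7% of WT. AT2G28755 had 0.262, 0.292, 0.284 and 0.293 in petc and 0.352, 0.384, 0.363 and 0.404 in WT, at 75.3%. AT3G52550, the second smallest difference by group means, had 0.462, 0.498, 0.454 and 0.415 in petc and 0.633, 0.628, 0.568 and 0.553 in WT, at 76.8%. AT3G52550 lay close to the limit, at a ratio of 1.109, and met the rule neither on quantile normalised nor on median centred values.

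The 4 genes just inside the limit were AT3G24190, AT3G04210, AT3G52550 and AT1G67820, with ratios of the lowest WT to the highest petc value of 1.107, 1.108, 1.109 and 1.111. The 4 eligible genes just outside were AGL26 with 1.098, AT3G11150 with 1.095, and AT1G11820 and AT1G21660 with 1.09 each. For AGL26 the highest petc value was 0.666 and the lowest WT value 0.731. AT1G11820 had 0.246, 0.249, 0.207 and 0.202 in petc and 0.469, 0.397, 0.272 and 0.275 in WT, so its mean difference was larger than that of many genes inside the limit. The rule therefore favours genes whose samples agree over genes with a large mean difference.

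This was also seen over all eligible probes. Of the 479 that did not meet the rule, 24 had a log2 fold change below the median of the 31 genes, and in 19 of these the petc and WT values overlapped. The relative SD of the 31 genes had a median of 7.94% in petc and 6.88% in WT, against 12.8% in petc and 17.6% in WT for the other eligible probes, a measure the rule itself acts on. Their probes had a median WT intensity of 0.681, with a range of 0.128 to 1.14, against 0.337 for the others. Intensities of different probes are not comparable as transcript amounts, so this describes the probes and not the abundance of the genes.

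**Figure D2:**
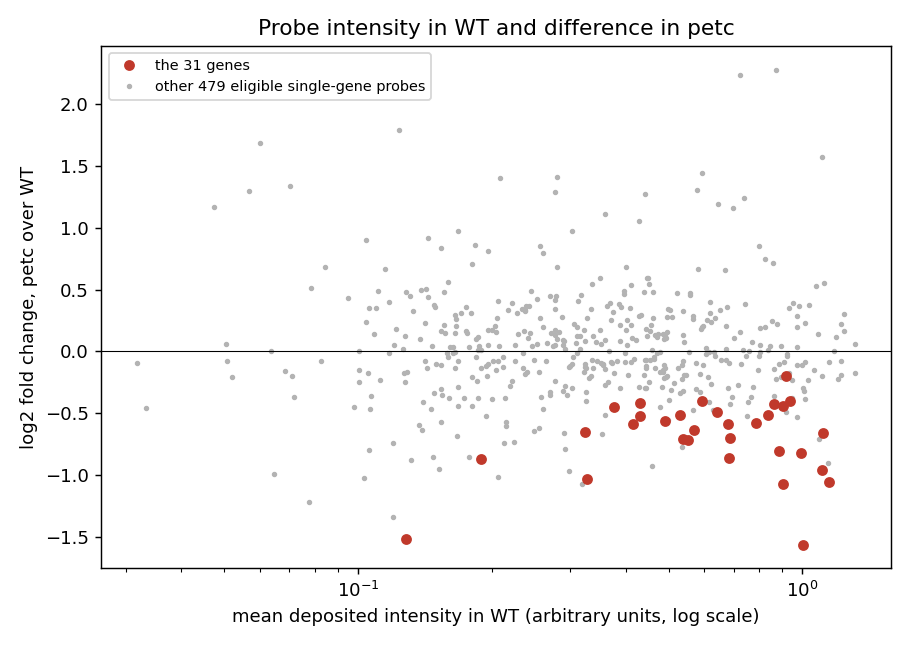
Log2 fold change of petc over WT on the normalised scale against the mean deposited intensity in WT (arbitrary units, log scale) for the 31 genes (red) and the other 479 eligible single-gene probes (grey). The red points lie between -1.56 and -0.20, and grey points at the same or lower values are probes whose samples overlapped or missed the factor of 1.1.

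Apart from the 4 genes named above, the log2 fold change in one pair was at most 2 times that in the other. On the normalised scale it was the larger in the second pair for 20 genes and in the first pair for 11. This lean was lost with the values as deposited. There AT3G09050, AT1G03810, AT1G24040, AT2G28755 and AT3G52550 turned to a larger difference in the first pair, and no gene turned the other way. The share among the other eligible probes is not given. The range was -1.77 to -0.09 in the first pair and -1.65 to -0.31 in the second pair. AT3G56010 was furthest out on one side, with -1.77 in the first pair and -1.26 in the second pair, and AT5G42070 on the other. The first-pair value of AT3G56010 includes its low petc sample 1.

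**Figure D3:**
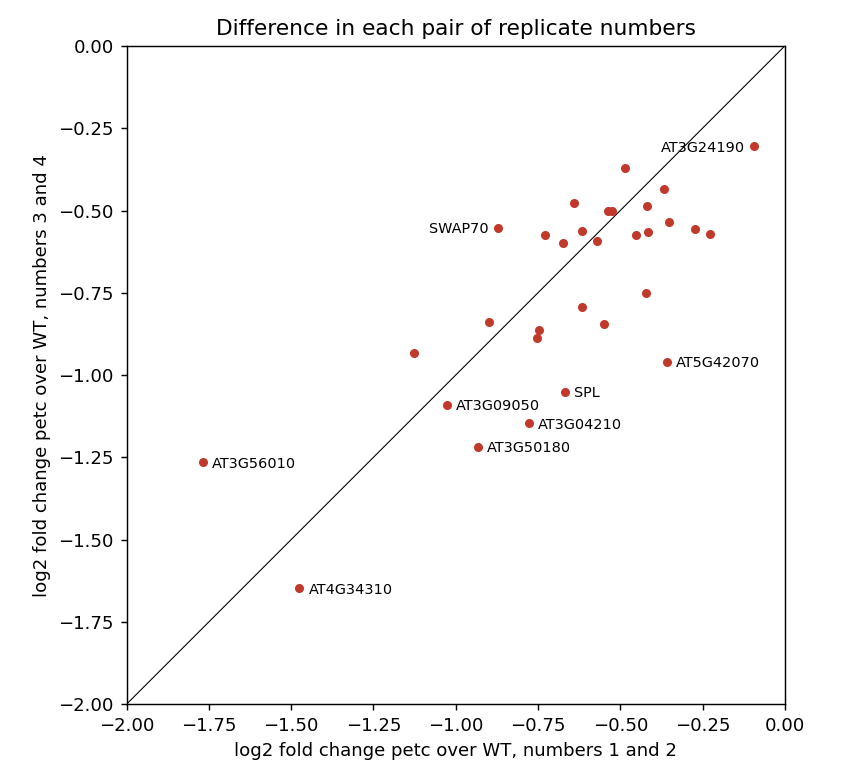
Log2 fold change of petc over WT for each of the 31 genes in numbers 3 and 4 (vertical) against numbers 1 and 2 (horizontal), with the line of equal change. Values are on the normalised scale. All points are below 0 in both, 20 lie below the line, and AT5G42070 and AT3G56010 lie furthest from it. With the values as deposited fewer genes would lie below the line.

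The pairs of numbers also differed within a group, a contrast that the rule limits in size but not in direction. In petc, the second pair was above the first pair in 11 of the 31 genes on the normalised scale, and in WT in 16 of 31. For the other eligible probes the shares were 43.8% in petc and 43.6% in WT. The direction in petc turned with the scaling, since with the values as deposited 19 of the 31 genes were higher in the second pair, as were 53.0% of the other probes. In WT the count for the 31 genes was 16 with either scaling.

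For 18 of the 31 genes (58.1%) the difference between the pairs had the same sign in petc and in WT on the normalised scale. Among the other eligible probes the sign was the same in 390 of 479 (81.4%), a larger share. For the 31 genes the count was also 18 with the values as deposited, but only 12 genes were in both counts. Most of these differences were small, with a median size of 0.17 in petc and 0.07 in WT on the log2 scale, against 0.28 in petc and 0.32 in WT for the other eligible probes, as the rule takes genes with little spread within a group. On the normalised scale the difference was at least 0.2 in both groups and of the same sign in 6 genes, and in 5 of them, all but AT3G52550, also with the values as deposited. The share of the other eligible probes with such differences is not given here. AT3G04210, AT4G15840, AT1G03810 and AT2G40980 were higher in the second pair. The difference in AT3G04210 was 0.41 in petc and 0.78 in WT, and in AT4G15840 it was 0.51 in petc and 0.31 in WT. AT5G06990 and AT3G52550 were lower in the second pair, with a difference of -0.42 in petc and -0.28 in WT for AT5G06990. In none of the 31 genes was the difference between the pairs within WT larger than that between petc and WT. The rule favours this, since it takes only genes whose petc values all lie below the lowest WT value, so this count is no test. What the pairs stand for is not given, and its part in these differences was not tested.

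**Figure D4:**
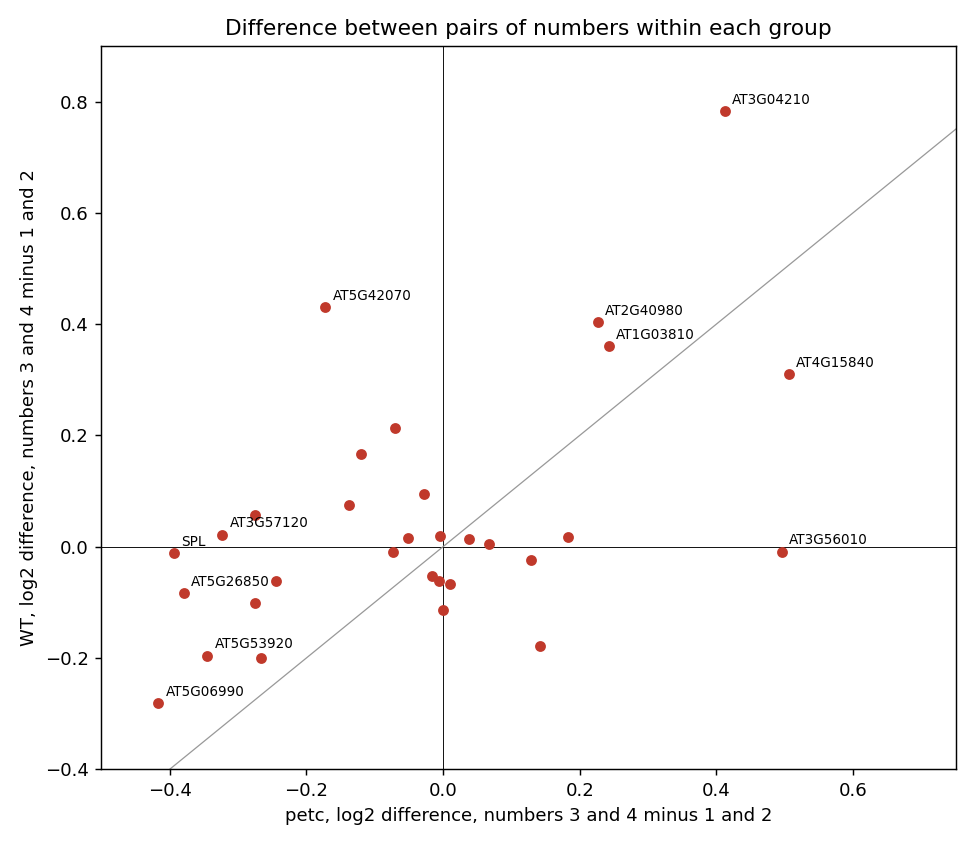
Log2 difference between numbers 3 and 4 and numbers 1 and 2 within petc (horizontal) and within WT (vertical) for each of the 31 genes on the normalised scale, with the line of equal difference. AT3G04210 and AT4G15840 lie high in both groups, AT5G06990 is low in both, and SPL (-0.39) and AT3G56010 (0.50) differ between the pairs in petc but hardly in WT (-0.01 each). Both petc differences rest on single samples. In AT3G56010 only petc sample 1 was low, and in SPL petc samples 2 and 4 were nearly equal (0.385 and 0.389, deposited intensity).

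The genes were spread over the genome. Chromosomes 1 to 5 held 4, 8, 7, 6 and 6 of them, which is 3.25%, 8.25%, 7.29%, 6.32% and 6.19% of the eligible single-gene probes of each. Apart from AT2G44530 and GH9B11, with 2 genes between them, the closest were AT2G30320 and SWAP70, with 70 genes between them in the RefSeq order. All 31 are protein-coding, and 3 carry a symbol other than the locus name in the RefSeq table. The 17 keyword lists, searched in RefSeq symbols and synonyms, took up only 22 of the tested single-gene probes, of which 4 were called higher and 4 lower in petc, where 11.1% and 13.9% of all tested single-gene probes were, and GH9B11 was the only 1 of the 31 genes in any list. It was in the hydrolase list, where 1 of 5 probes was called higher (GH9B12) and 2 lower, GH9B11 among them, too few to set against those shares.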

How the data were processed

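Expression was measured in 4 petc and 4 WT samples. The values deposited by the authors are intensities on a linear scale, 1 column per sample, with means near 1 and a ceiling of 100. The labels name no scanner, background correction or scaling, so their effect on the measurements is unknown. Gene names come from GEO's platform annotation and from the RefSeq gene table of assembly TAIR10.1, which found 690 of 692 single-gene probes, and no coordinates are printed because the files name no build. No descriptions or sequences of genes were used here, so the families named come from general knowledge and the planned promoter motif search was not run.

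The 31 genes and all lists were chosen with earlier results of these data known. Ranking by WT mean was done over single-gene probes. Values of 0 were treated as missing, the others were taken to log2 and quantile normalised, and probes with at least 3 values per group were fitted with limma 3.58.1 in R 4.3.3, petc minus WT. Adjustment of its p-values followed Benjamini and Hochberg over all 2947 probes. The fit was tested on simulated data. The simulated samples were independent, without the close pairs seen here, so that test cannot show how far the calls hold in these data. Log2 fold changes and SE come from the limma fit to the real data, which took the samples of a group as independent and so left the close pairs out. Intensities are as deposited. Every gene is given with its sample values, although the planned rule asked for this only for the largest differences, the brightest probes and those at the limit. The number of arrays limits the precision, and 0 columns of other samples were set aside. Same-numbered petc and WT samples departed alike from the means of their groups (Pearson r of 0.586 to 0.649 for each of 4 pairs, across probes). This was above the 0.415 to 0.472 of other samples of the same pair of numbers. An alternative fit therefore took the numbers to pair the samples, with the replicate number as a block. The main fit and its SE did not use this pairing, which comes from the data, not from a label. Figures were drawn with matplotlib 3.10.9.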

Additional observations from a re-analysis of the deposited data

Results flagged for a closer look

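Within each gene and group of 4 samples, the highest or lowest value was set against the others by Dixon's test on the log2 scale. Of 62 groups 3 stood out. Chance would flag about 1 in 20, or 3.1, if samples were independent, but here they form close pairs. AT3G56010 in WT replicate 3 was 0.118 (deposited intensity), against 0.130 to 0.132 in the other WT samples. AT1G24040 in WT replicate 2 was 0.745, against 0.796 to 0.805 in the others. AT5G52960 in WT replicate 2 was 0.733, against 0.866 to 0.874 in the others. All 3 were low samples of WT, the side nearer to petc.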

How the results depend on the processing

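The number of genes meeting the rule was 31. It was 63 with no factor, 14 with a stricter factor and 52 when the brightest 60 and the genes left out by name were kept. On quantile normalised values 36 genes met it, 28 of them among the 31, and on median centred values 38, with 29 of the 31. Ranking the brightest 60 over all probes, chosen after seeing the data, gave 37 with all 31 included, and without each sample in turn it was 36 to 41, also with all 31. That all 31 were kept is no test. The other ranking only loosens the rule, and a gene that meets the limit in all samples also meets it with 1 sample fewer. The median log2 fold change of -0.64 was -0.49 with an offset of 0.1 before log2, and -0.64 to -0.59 without each sample in turn. No log2 fold change of the 31 genes turned its sign under any alternative run. The rule nearly fixes this, since it takes only genes whose petc values all lie below all WT values.

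Single-gene probes called lower in petc numbered 83, and those called higher 66. The counts were 147 and 126 with the replicate block, 145 and 119 with the pair of numbers as a block (chosen after seeing the data), 29 and 26 with the pairs as correlated readings, and 0 and 0 in limma on the means of the pairs (57 and 40 at an unadjusted p below 0.05). As deposited they were 66 and 84, so the balance turned. Without each sample in turn they were 58 to 70 lower and 49 to 67 higher. Of the 31 genes 30 were called, 11 with the pairs as correlated readings, 0 with their means, and 25 to 29 without each sample in turn. The replicate block changed none of these 30 calls. What the numbers stand for was not tested.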
